A study of Arabidopsis thaliana with 8 samples.

Results

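The measurements concern 10 Arabidopsis genes of the pollen coat and of mature pollen, compared between the poly(A) polymerase mutant paps1-1 and its wild type in inflorescences. The members were named by locus, and each was represented by the probe whose systematic name began with that locus, which gave 1 probe per gene. These 10 genes were among 25665 loci on the array, of which 21446 passed the filter on dim probes and were tested. All 10 members were among the loci tested, and each was well above background in both genotypes in inflorescences, so none was tested through 1 genotype alone. 5 of them belong to the pollen coat, namely the lipase genes EXL4 (AT1G75910), EXL5 (AT1G75920) and EXL6 (AT1G75930) and the oleosin-type glycine-rich protein genes GRP17 (AT5G07530) and GRP19 (AT5G07550). The other 5 belong to the pollen grain, namely the pectin methylesterase gene VGD1 (AT2G47040), the arabinogalactan protein genes AGP6 (AT5G14380) and AGP11 (AT3G01700), the LAT52-like gene AT5G45880 and the sperm cell histone H3 gene MGH3 (AT1G19890).

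Plants of the Ler accession, either paps1-1 or wild type (WT), gave total RNA that was hybridized in 2 colours on 8 Agilent arrays, 4 of inflorescences and 4 of seedlings. Inflorescences of both genotypes were main inflorescences of plants grown on soil for 30 days, and the labels state that open flowers or buds were left out. Seedlings were whole, with roots, from MS plates, and mutants were 11 days old while wild-type plants were 9 days old, so age goes with genotype in that tissue. Both genotypes grew at 21 °C in long days, and material was taken 5 to 7 hours after the lights came on. The mutant was labelled with Cy5 on replicates 1 and 2 and with Cy3 on replicates 3 and 4 of each tissue. The series describes 4 biological replicates per genotype and tissue, and the labels do not say how many plants each replicate pooled.

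Poly(A) polymerases add the tail to the 3′ end of messenger RNA, and PAPS1 is one of the nuclear enzymes of Arabidopsis. The pollen coat is a layer of lipids and proteins on the outer wall of the grain. It is made by the tapetum, the innermost cell layer of the anther, and reaches the grain when that layer breaks down. Its lipases and oleosin-type proteins are known for their part in the hydration of the grain on the stigma. The grain itself holds a vegetative cell, which stores transcripts for the growth of the pollen tube, and the male germ line that forms the sperm cells. Which flower stages remained in the samples is not clear from the labels, since their wording on open flowers and buds can be read in more than 1 way.

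Medians of spot signal over local background on the 4 inflorescence arrays were 4.93 to 5.51 in green and 3.89 to 5.02 in red, and 62.2% to 63.3% of probes were well above background there. No spot was saturated. The log2 ratios of the inflorescence arrays correlated pairwise at 0.789 to 0.905 over the loci tested, which are not independent of each other. Each tissue had a slide of its own, which leaves tissue and slide confounded in any comparison between tissues, while the genotypes met within each array.

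The 10 genes were bright in inflorescences and at or near background in seedlings. In inflorescences all 80 readings (10 genes, 4 arrays, both channels) were well above background, with spot signals 21.2 to 3154 times the local background. In seedlings only 23 of 80 readings were well above background, and the quotient lay between 1.02 and 3.88. MGH3 had the lowest quotients in inflorescences, 22.0 to 31.2 in wild-type channels and 21.2 to 27.0 in mutant channels, while GRP17 had the highest, 2308 to 3154 in wild type and 1612 to 2224 in the mutant. A quotient is a property of its probe, so these values are not levels that can be set against each other between genes.

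**Figure D1:**
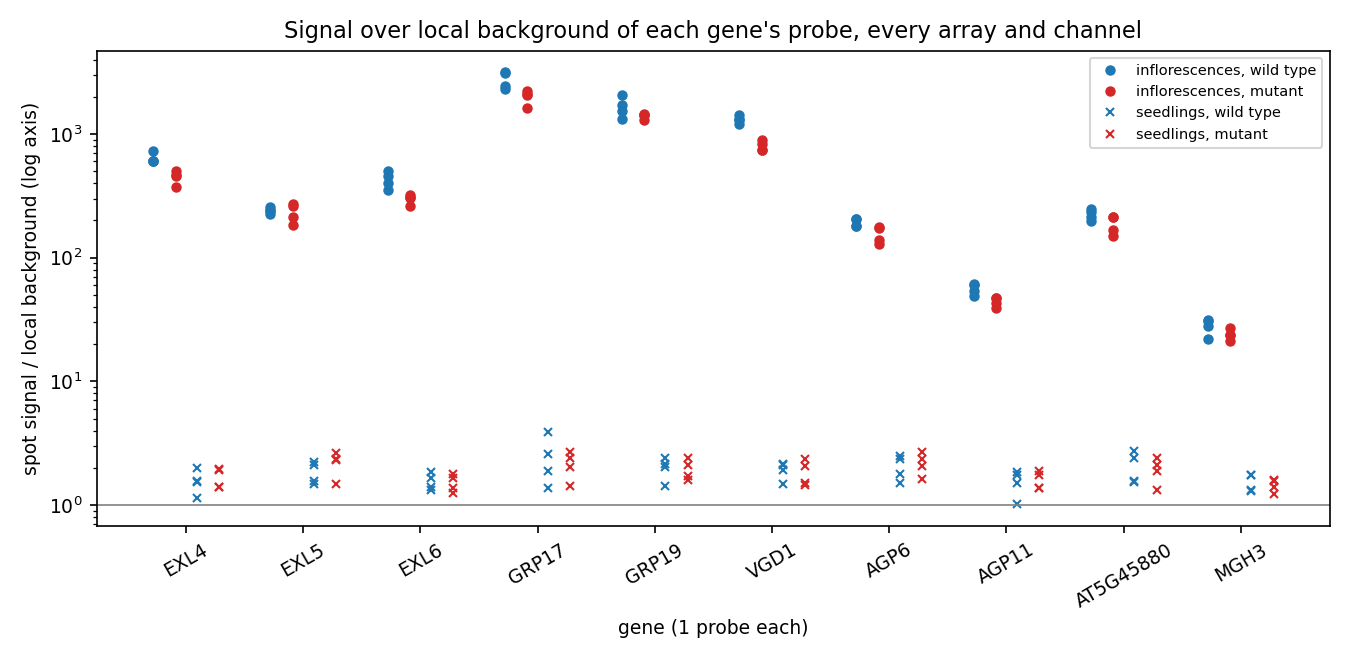
Median spot signal divided by median local background (log axis, no unit) for the probe of each of the 10 genes, with 1 point per array and channel, circles for inflorescences and crosses for seedlings, blue for wild type and red for the mutant. Every inflorescence point lies at 21.2 or above, and every seedling point at 3.88 or below.

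Normalized levels per channel gave the distance between the tissues within wild type as a description, with no test because slide went with tissue. Where no wild-type seedling array was well above background, only a bound could be had, taken against the lowest signal well above background on each seedling array or the probe's own signal if that was higher. On that basis wild-type inflorescences were at least 224-fold above seedlings for EXL4, at least 162-fold for EXL6, at least 77.1-fold for EXL5, at least 16.7-fold for AGP11 and at least 8.43-fold for MGH3. Against the same floor, GRP17 was at least 1027-fold higher and GRP19 at least 586-fold higher, with 2 of 4 wild-type seedling arrays well above background for each. VGD1 was at least 490.1-fold higher, with 1 of 4 such arrays. AT5G45880 was 70.1-fold higher and AGP6 54.2-fold higher on these levels, both with all 4 wild-type seedling arrays well above background. Their wild-type seedling signals were only 1.54 to 2.71 and 1.51 to 2.47 times the local background. The levels hold an offset of 50 added in the background correction. It raises signals near background in proportion more, so it makes all these folds smaller. These levels come from single channels after normalization between arrays, in which each tissue held both dye orientations equally.

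Between the genotypes, the differences in inflorescences were small and of both signs. VGD1, EXL6, GRP17 and GRP19 were lower in paps1-1, MGH3 was higher, and EXL4, EXL5, AGP6, AGP11 and AT5G45880 did not pass the test. The test was a limma fit of all 8 arrays with a dye term per gene, and a gene passed if its p, adjusted over all loci tested by the Benjamini-Hochberg method, was under 0.05. Thus 4 of 10 members were lower and 1 of 10 was higher, where of all loci tested 53.7% passed, 27.5% lower and 26.2% higher. The share of members that passed was near that background. The count of 4 fell to 2 without replicate 1 and without replicate 4. It was 0 in the fit of all 8 arrays with the scanner software's log ratio or with median centring, while fits of inflorescences alone with these values gave 4 and 3. The median log2 ratio of mutant over wild type was −0.15 over the 10 members and 0.00092 over all loci tested, and the median size of the log2 ratio over all loci was 0.168. None of the 10 passed a test against a change of 1.5-fold, which 1.61% of all loci passed as higher and 1.01% as lower. In tissue of many cell types, fewer cells of a type and less RNA per cell cannot be told apart.

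**Figure D2:**
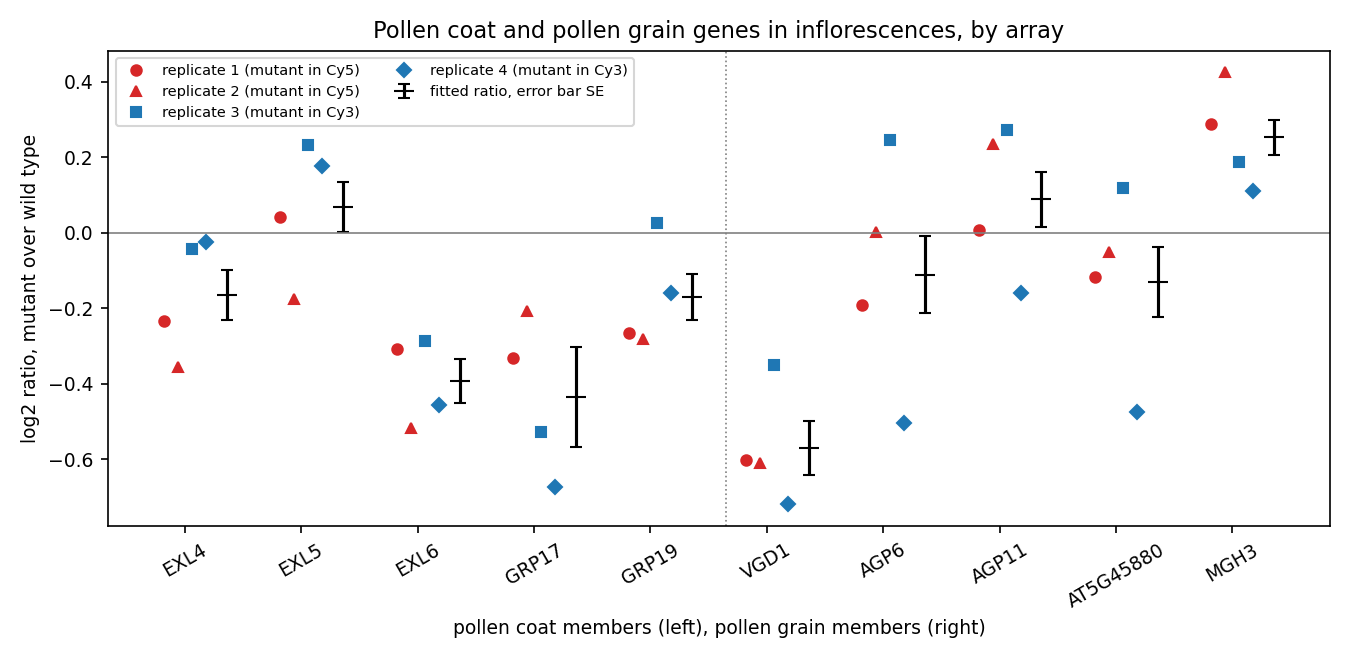
Log2 ratio of paps1-1 over wild type for each of the 10 genes in inflorescences, with 1 symbol per array (red for the mutant in Cy5, blue for the mutant in Cy3) and a black bar for the fitted ratio with its standard error. VGD1, EXL6 and GRP17 lie below 0 on all 4 arrays and MGH3 lies above 0 on all 4, while AGP6 runs from −0.50 on replicate 4 to 0.25 on replicate 3.

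The 4 arrays did not move the members alike. The median over the 10 members was −0.21 on replicate 1, −0.19 on replicate 2, 0.07 on replicate 3 and −0.31 on replicate 4. On replicate 3, 4 of the 10 ratios were below 0, against 7, 7 and 8 on replicates 1, 2 and 4. Normalized levels of the 4 mutant and the 4 wild-type channels did not overlap for EXL6, GRP17, VGD1 and MGH3 and overlapped for the other 6 genes. Over all loci measured on every inflorescence channel, 43.2% showed no overlap, 22.5% with the mutant lower and 20.7% with it higher.

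Among the pollen coat lipases, EXL6 was lower in the mutant, and the other two members did not pass the test. EXL6, a lipase-like protein of the pollen coat, had log2 ratios of −0.31, −0.52, −0.29 and −0.46 on replicates 1 to 4. All 4 arrays had the mutant lower, and its normalized log2 levels, 13.02 to 13.32 in the mutant and 13.46 to 13.66 in wild type, did not overlap. The fitted ratio was −0.39 ± 0.06 (SE, n = 4 arrays, adjusted p = 0.000322), which is 0.762 of the wild-type level on the linear scale, with a 95% confidence interval of 0.696 to 0.834.

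EXL4, a coat lipase known to speed the hydration of pollen on the stigma, had log2 ratios of −0.23, −0.35, −0.04 and −0.02 on replicates 1 to 4. All 4 were below 0, those with the mutant in Cy5 lay further down than those with it in Cy3, and the levels of the genotypes overlapped. Its fitted ratio of −0.16 ± 0.07 did not pass (SE, n = 4 arrays, adjusted p = 0.0582), with a 95% confidence interval of −0.31 to −0.02 on the log2 scale before adjustment. In a fit of the inflorescence arrays alone the same ratio passed (adjusted p = 0.0147).

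EXL5, a lipase gene that lies between the other two, had log2 ratios of 0.04, −0.18, 0.23 and 0.18 on replicates 1 to 4. 3 of the 4 arrays had the mutant higher and 1 had it lower, and the levels overlapped. With a fitted ratio of 0.07 ± 0.07 it did not pass (SE, n = 4 arrays, adjusted p = 0.410), and its 95% confidence interval ran from −0.08 to 0.22. Leaving out 1 array at a time gave 0.03 to 0.14.

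Both oleosin-type members were lower in the mutant, with no overlap of the genotypes for GRP17 and overlap for GRP19. GRP17, an abundant oleosin-domain protein of the pollen coat that is needed for prompt hydration of the grain, had log2 ratios of −0.33, −0.21, −0.53 and −0.67 on replicates 1 to 4. The mutant was lower on all 4 arrays, and levels of 16.06 to 16.37 in the mutant and 16.42 to 16.83 in wild type did not overlap. In the fit it was at −0.44 ± 0.13 (SE, n = 4 arrays, adjusted p = 0.0186). Its call ended when replicate 1, 3 or 4 of the inflorescences was left out (adjusted p 0.0595, 0.0539 and 0.0791), with ratios of −0.43, −0.44 and −0.39.

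GRP19, another small oleosin-type coat protein, had log2 ratios of −0.26, −0.28, 0.02 and −0.16 on replicates 1 to 4. Replicate 3 alone had the mutant higher, and the levels of the genotypes overlapped. Its fitted value was −0.17 ± 0.06 (SE, n = 4 arrays, adjusted p = 0.0355). This call ended without replicate 1, 2 or 4 (adjusted p 0.130, 0.142 and 0.121) and with the replicate number as a block (adjusted p = 0.0598), and the ratio shrank to −0.03 when arrays were centred on their median in place of loess.

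Of the genes of the grain, VGD1 had the largest fall among the 10 members. It encodes a pectin methylesterase of the pollen tube wall that is needed for growth of the tube through the style. Its log2 ratios were −0.60, −0.61, −0.35 and −0.72 on replicates 1 to 4. All 4 arrays had the mutant lower, and levels of 14.61 to 14.92 in the mutant and 15.22 to 15.45 in wild type did not overlap. VGD1 had a fitted ratio of −0.57 ± 0.07 (SE, n = 4 arrays, adjusted p = 0.000100), or 0.673 of wild type with a 95% confidence interval of 0.603 to 0.751.

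The arabinogalactan proteins AGP6 and AGP11, cell wall glycoproteins that act together in pollen development and tube growth, did not pass. AGP6 had log2 ratios of −0.19, 0.0022, 0.25 and −0.50 on replicates 1 to 4, the widest spread among the members (SD 0.317). Replicates 3 and 4 lay at opposite ends although both had the mutant in Cy3, and the genotypes overlapped. The fitted ratio was −0.11 ± 0.10 (SE, n = 4 arrays, adjusted p = 0.380), with a 95% confidence interval of −0.34 to 0.12, and leaving out 1 array at a time gave −0.24 to 0.06.

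AGP11 had log2 ratios of 0.0068, 0.23, 0.27 and −0.16 on replicates 1 to 4. Replicate 4 was again the lowest and replicate 3 the highest, and the genotypes overlapped. A fitted ratio of 0.09 ± 0.07 resulted (SE, n = 4 arrays, adjusted p = 0.330), with a 95% confidence interval of −0.07 to 0.25, and leaving out 1 array at a time gave 0.0034 to 0.18.

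AT5G45880, which resembles the tomato pollen gene LAT52, had log2 ratios of −0.12, −0.05, 0.12 and −0.47 on replicates 1 to 4. The order of the arrays had replicate 3 highest and replicate 4 lowest, as for both arabinogalactan protein genes, and the genotypes overlapped. The fitted ratio was −0.13 ± 0.09 (SE, n = 4 arrays, adjusted p = 0.263), with a 95% confidence interval of −0.34 to 0.08, and leaving out 1 array at a time gave −0.21 to 0.03.

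MGH3, a histone H3 variant of the male germ line, was the member that was higher in the mutant. Its log2 ratios were 0.29, 0.42, 0.19 and 0.11 on replicates 1 to 4. All 4 arrays had the mutant higher, those with the mutant in Cy5 more so, and levels of 9.39 to 9.73 in the mutant and 9.13 to 9.37 in wild type did not overlap. The fitted ratio was 0.25 ± 0.05 (SE, n = 4 arrays, adjusted p = 0.00124), or 1.19 times wild type with a 95% confidence interval of 1.11 to 1.28.

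The direction of MGH3 appeared with normalization. Before it, the signal over background of its probe was 21.2 in the mutant and 22.0 in wild type on replicate 1, 27.0 and 28.2 on replicate 2, 23.5 and 30.9 on replicate 3, and 23.8 and 31.2 on replicate 4. All 4 had the mutant lower, where the median log2 quotient of mutant over wild type for the loci tested was −0.51, −0.36, −0.09 and −0.06 on these arrays. With the arrays centred on their median in place of loess the ratio of MGH3 was 0.15 and did not pass (adjusted p = 0.600 over all 8 arrays, 0.0699 over inflorescences alone).

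Some members lie in gene clusters, and their neighbours were measured on the same arrays. The lipase cluster runs from AT1G75880 through AT1G75890, AT1G75900, EXL4, EXL5 and EXL6 to the beta-glucosidase gene ATA27. Within it, AT1G75880 had a fitted log2 ratio of 0.82 ± 0.06 (adjusted p = 4.316e-06), with 0.53, 0.82, 0.96 and 0.98 on replicates 1 to 4. AT1G75900 was at 0.45 ± 0.06 (adjusted p = 0.000128) and AT1G75890 at 0.17 ± 0.06 (adjusted p = 0.0355). AT1G75880 and AT1G75900 were well above background on all 4 wild-type seedling arrays too. AT1G75900 was higher in mutant seedlings as well, at 0.31 (adjusted p = 0.00120), while AT1G75880, at 0.12, did not pass there (adjusted p = 0.111). The call of AT1G75890 ended without replicate 1, 2 or 4 (adjusted p 0.0736, 0.142 and 0.201) and with the replicate block (adjusted p = 0.0611). At the other end ATA27, an anther gene, fell by 0.53 on the log2 scale (SE 0.07, adjusted p = 0.000104) and was lower on all 4 arrays. From one end of this cluster to the other, 3 genes were higher, EXL4 and EXL5 did not pass, and EXL6 and ATA27 were lower. Of all loci, 26.2% were higher and 27.5% lower. In the fit of all 8 arrays, a normexp offset of 0, the software's log ratio and median centring ended 2 of these calls. Adjusted p was 0.176, 0.11 and 0.166 for ATA27 and 0.123, 0.0726 and 0.2 for EXL6. ATA27 did not pass with the authors' deposited table either (adjusted p = 0.0843).

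The oleosin-type cluster gave 1 direction. GRP14, GRP18, GRP17, GRP16, GRP19 and GRP20 lie along the chromosome in that order. All 6 were lower in the mutant, where 27.5% of all loci were. GRP16 had a fitted log2 ratio of −0.84 ± 0.09 (adjusted p = 3.97e-05), with −1.08, −1.14, −0.31 and −0.82 on replicates 1 to 4. GRP20 was at −0.59 ± 0.05 (adjusted p = 1.19e-05), GRP14 at −0.23 ± 0.06 (adjusted p = 0.00577) and GRP18 at −0.17 ± 0.05 (adjusted p = 0.0163). The call of GRP18 ended without replicate 1, 2 or 4 (adjusted p 0.0721, 0.0747 and 0.0532). In the fit of all 8 arrays, the scanner software's log ratio ended the calls of GRP14 and GRP20 (adjusted p 0.301 and 0.078). Median centring ended them too (adjusted p 0.0748 and 0.121). Both settings also ended the calls of GRP17, GRP18 and GRP19 in that fit. For GRP14 and GRP18 the ratios with the mutant in Cy3 were between −0.0090 and −0.08, and those with it in Cy5 between −0.30 and −0.47, and the fitted value averages both orientations.

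VGD1 has the closely related gene VGDH1 next to it on the chromosome. VGDH1, another pectin methylesterase gene, had log2 ratios of −0.16, 0.10, −0.04 and −0.42 and a fitted value of −0.13 ± 0.09 that did not pass (adjusted p = 0.265). Related genes of all 3 clusters could share signal through similar probe targets, which was not tested.

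**Figure D3:**
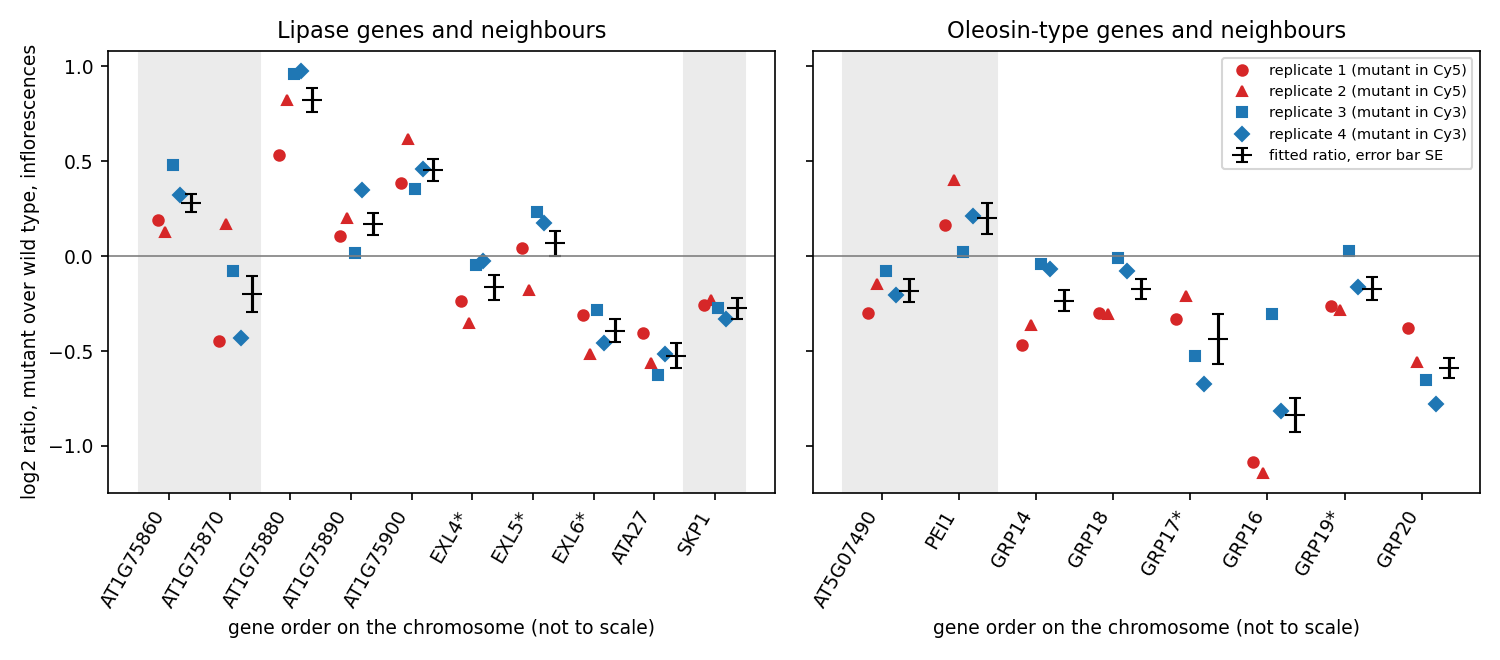
Log2 ratio of paps1-1 over wild type in inflorescences for the lipase cluster (left) and the oleosin-type cluster (right) in gene order, not to scale, with 1 symbol per array, black bars for the fitted ratio with its standard error, asterisks for the members and grey for neighbours outside the cluster. The left panel has 0.82 at AT1G75880 and −0.53 at ATA27 at the ends of the cluster, and all 6 oleosin-type genes lie below 0, from −0.17 to −0.84.

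Other genes of the pollen coat, the grain and the rest of the flower were described from lists named by function. All genes tested from these lists were well above background on all 4 wild-type inflorescence arrays. Of the 8 pollen coat relatives in the 2 clusters, 3 were higher and 5 lower, with a median log2 ratio of −0.20. Of 32 late pollen genes, 31 were tested, 9 were higher and 12 lower, and their median was −0.05. The background for these and the following counts was 26.2% higher and 27.5% lower among all loci. Of the 37 genes named from the lists, 24 lost their call with median centring, 17 with the scanner software's ratio, 13 at a normexp offset of 0 and 9 with the deposited table in the fit of all 8 arrays, and 3, 3, 2 and 2 in the fits of inflorescences alone with these values. No named gene changed sign under these settings.

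The genes named from the late pollen list were picked as those furthest from 0, and 4 were lower and 1 higher. That split describes the pick, since the whole list had 12 lower and 9 higher. PPME1, a pectin methylesterase like VGD1, had a log2 ratio of −0.66 ± 0.05 (adjusted p = 7.71e-06) and was lower on all 4 arrays, from −0.56 to −0.85. RALFL4, a secreted peptide that guards the integrity of the pollen tube, was at −0.63 ± 0.08 (adjusted p = 0.000108). The multicopper oxidase-like genes sks13 and sks12, expressed in pollen, were at −0.60 ± 0.06 and −0.48 ± 0.07 (adjusted p = 3.64e-05 and 0.000188). Median centring in the fit of all 8 arrays ended the calls of RALFL4, sks13 and sks12 (adjusted p 0.0814, 0.111 and 0.0962). At the other end AT1G49490 was at 0.57 ± 0.09 (adjusted p = 0.000351).

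Of 5 sperm cell genes other than MGH3, 4 were higher and none was lower, with a median log2 ratio of 0.27, where 26.2% of all loci were higher. The DUO1-activated gene DAU2 was at 0.54 ± 0.06 (adjusted p = 3.25e-05), the gamete fusion gene HAP2 at 0.35 ± 0.06 (adjusted p = 0.00102), GEX1 at 0.27 ± 0.06 (adjusted p = 0.00239) and the zinc finger gene DAZ1 at 0.22 ± 0.05 (adjusted p = 0.00295). GEX2 had −0.12 ± 0.05 and did not pass (adjusted p = 0.0680). In the fit of all 8 arrays, median centring ended the calls of DAU2, GEX1 and DAZ1 (adjusted p 0.0712, 0.446 and 0.213) and the software's log ratio those of DAU2 and GEX1 (adjusted p 0.169 and 0.212). The mean log2 level of these 5 genes was 8.05 to 8.25 in mutant channels and 7.86 to 7.91 in wild-type channels, which did not overlap. Of 5 pollen transcription factors tested of 6 listed, AGL104 was lower, at −0.31 ± 0.05 (adjusted p = 0.000665), and AGL65 was higher, at 0.12 ± 0.05 (adjusted p = 0.0419), both MADS-box genes of maturing pollen. DUO1, the regulator of the male germ line, had 0.12 ± 0.06 and did not pass (adjusted p = 0.0850). AGL65 no longer passed when any 1 array was left out (adjusted p from 0.0709 to 0.144) or with the replicate block (adjusted p = 0.0649). AGL104 lost its call with offset 0 and median centring in the fit of all 8 arrays (adjusted p 0.143 and 0.132).

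Markers of other cells moved in the same samples. Of 6 tapetum regulators, 4 were higher and 1 lower, with a median log2 ratio of 0.28 and mean log2 levels of 8.57 to 8.86 in the mutant and 8.12 to 8.64 in wild type. TDF1, a MYB factor of early tapetum development, was at 1.04 ± 0.09 (adjusted p = 1.31e-05), with 1.24, 0.94, 0.85 and 1.11 on replicates 1 to 4, and DYT1, which acts before it, was at 0.22 ± 0.05 (adjusted p = 0.00634). In the fit of all 8 arrays, the call of TDF1 ended with the software's log ratio (adjusted p = 0.113). That of DYT1 ended with offset 0, median centring and the deposited table (adjusted p 0.255, 0.196 and 0.0625). Of 9 pollen wall enzymes of the tapetum, 3 were higher and 1 lower, with a median of −0.06. LAP6, a polyketide synthase of sporopollenin formation, was at 0.69 ± 0.07, MS2, a fatty acyl reductase, at 0.39 ± 0.07 and CYP703A2, a fatty acid hydroxylase, at 0.32 ± 0.05, while TKPR2, a reductase of the same route, was at −0.52 ± 0.07 (adjusted p 3.21e-05, 0.00141, 0.000808 and 0.000204). The call of MS2 ended with offset 0 and median centring (adjusted p 0.106 and 0.219). That of CYP703A2 ended with the software's log ratio and median centring (adjusted p 0.162 and 0.25).

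Among 5 lipid transfer genes of the late tapetum, 3 were higher and 1 lower, and their median log2 ratio was 0.25. AT3G52130 was at 0.84 ± 0.09 (adjusted p = 3.39e-05) and AT1G66850 at −1.07 ± 0.20 (adjusted p = 0.00117). The call of AT1G66850 ended with offset 0, the software's log ratio, median centring and the deposited table (adjusted p 0.0680, 0.214, 0.111 and 0.0535), with ratios from −0.84 to −1.05. The 2 others that passed were A7, at 0.37 ± 0.06, and AT5G07230, at 0.25 ± 0.07 (adjusted p 0.000837 and 0.00887). In the fit of both tissues together, A7 lost its call with offset 0, median centring and the deposited table (adjusted p 0.209, 0.17 and 0.133). AT5G07230 lost its call with these settings (adjusted p 0.362, 0.527 and 0.242) and with the software's log ratio (adjusted p = 0.401). AT5G07230 also did not pass without replicate 1 (adjusted p = 0.0628). Both genes passed in the fits of inflorescences alone with these values. Over the 20 genes of the 3 tapetum lists 10 were higher and 3 lower, beside 26.2% and 27.5% of all loci, and 5 were lower without replicate 4. The part of these markers in the values of the coat genes was not tested.

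Lists of other stages and organs completed the description. Of 5 meiosis genes, 3 were lower and none was higher, with a median log2 ratio of −0.33 and mean log2 levels of 8.41 to 8.66 in the mutant and 8.68 to 8.88 in wild type. DMC1, the meiotic recombinase, was at −0.58 ± 0.09, and SDS, a meiotic cyclin, and SYN1, a cohesin subunit, were each at −0.33, with SEs of 0.07 and 0.06 (adjusted p 0.000353, 0.00257 and 0.00121). DMC1 and SDS were lower in mutant seedlings too, at −0.73 and −0.18 (adjusted p 6.61e-05 and 0.0485). SYN1 lost its inflorescence call with the software's log ratio and median centring in the fit of all 8 arrays (adjusted p 0.0746 and 0.0504). Of 6 carpel and ovule genes, 4 were higher and none lower, with a median of 0.28 and mean log2 levels of 10.38 to 10.54 in the mutant and 10.17 to 10.29 in wild type. SPT and SHP2, transcription factors of carpel development, were at 0.39 ± 0.05 and 0.39 ± 0.07 (adjusted p 0.000147 and 0.000671). INO, a factor of the outer integument of the ovule, was at 0.32 ± 0.08 (adjusted p = 0.00577). SPT had 0.66, 0.67, 0.22 and 0.01 on replicates 1 to 4, further up with the mutant in Cy5. Mutant seedlings had 2 of the 6 genes higher, SPT among them at 0.41 (adjusted p = 9.32e-05). The call of INO ended with offset 0, median centring and the deposited table (adjusted p 0.153, 0.415 and 0.0771), and that of SHP2 with the software's log ratio and median centring (adjusted p 0.124 and 0.325). Of 3 genes for the identity of petals, stamens or both, PI and AG were higher, at 0.21 ± 0.07 and 0.16 ± 0.05 (adjusted p 0.0224 and 0.0219). AP3, at 0.06 ± 0.07, did not pass (adjusted p = 0.479). PI no longer passed without replicate 1, 2 or 3 (adjusted p 0.0759, 0.136 and 0.0561), nor AG without replicate 1 or 4 (adjusted p 0.0956 and 0.137). The share of flower stages and organs in each sample was not measured, and its part in the values of the 10 genes was not tested.

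**Figure D4:**
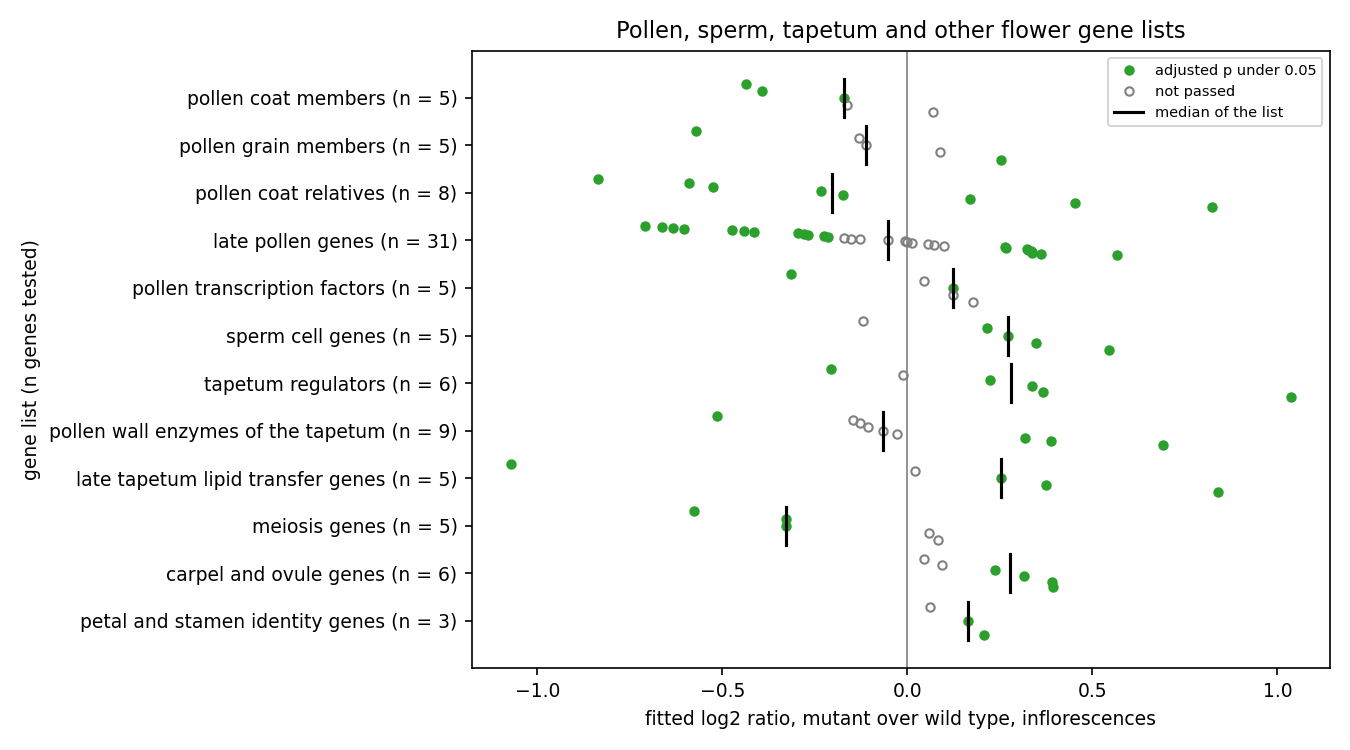
Fitted log2 ratio of paps1-1 over wild type in inflorescences for each gene tested (points, green where the adjusted p was under 0.05, open grey where it was not) by gene list, with a black line at the list's median. The pollen coat and pollen grain members have medians of −0.17 and −0.11, while the medians of the sperm cell genes and the tapetum regulators are 0.27 and 0.28.

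The arrays differed in these lists too. The median of the pollen grain members was −0.12, 0.0022, 0.19 and −0.47 on replicates 1 to 4, and that of the pollen wall enzymes was 0.14, −0.01, −0.43 and 0.17. Replicate 3 thus had the highest median for the grain members and the lowest for the wall enzymes, and replicate 4 had the reverse. For the sperm cell genes the median was above 0 on every array, at 0.28, 0.52, 0.15 and 0.19.

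In seedlings none of the 10 members passed the test, where 57.9% of all loci did, 28.6% higher and 29.3% lower. Only 23 of the 80 seedling readings of the members were well above background. The count of 0 therefore does not show that the members were unchanged there, and it is not read against that share. At an unadjusted limma p under 0.05 there was 1 member, EXL5, with a log2 ratio of 0.16 ± 0.07 (SE, adjusted p = 0.0605). It passed with the replicate block (adjusted p = 0.0436) and without seedling replicate 4 (adjusted p = 0.0392). With a normexp offset of 0, the deposited table and the software's log ratio EXL5 was at 0.47, 0.43 and 1.11. It passed there too (adjusted p 0.0113, 0.0117 and 0.000202), but not with median centring (adjusted p = 0.234). The size of this ratio thus depended on the processing. Its seedling ratios were 0.30, 0.02, 0.23 and 0.10 on replicates 1 to 4, all above 0, but only 1 of its 8 channels was well above background. The difference of the log2 ratios, seedlings minus inflorescences, holds age as well as genotype on its seedling side. This difference passed for 3 of 10 members, against 32.2% of all loci, 16.3% with it above 0 and 15.9% below. It was 0.39 ± 0.08 for EXL6 (adjusted p = 0.00571), 0.54 ± 0.10 for VGD1 (adjusted p = 0.00304) and −0.28 ± 0.07 for MGH3 (adjusted p = 0.0102). No seedling channel of EXL6 or MGH3 and 1 of 8 of VGD1 was well above background, so the seedling side of these differences lay at or near background.

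The members shared some of their variation over the 8 inflorescence channels. Correlations of the normalized log2 levels are given as a description, since channels of an array share the hybridization and channels of a genotype share the difference described above. EXL6 and VGD1 correlated at 0.935, VGD1 and GRP17 at 0.886, EXL6 and GRP17 at 0.859 and EXL6 and GRP19 at 0.833. AGP6 and AT5G45880 correlated at 0.928, while EXL5 was at −0.516 with GRP17 and at −0.124 with EXL6, although EXL5 and EXL6 are neighbours. MGH3 was at −0.731 with EXL4 and at −0.546 with VGD1. The median correlation was 0.501 within the 10 pairs of coat genes, 0.550 within the 10 pairs of grain genes and 0.0606 over the 25 pairs between them.

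Over the same 8 channels, the loci whose levels followed the mean of the 5 coat members most closely were AT1G54450 (Pearson correlation 0.991), PPI1 (0.988), AT3G10890 (0.987), AT5G06050 (0.985) and AT5G47160 (0.983). The loci closest to the mean of the 5 grain members were AT2G20320 (0.987), SEC14 (0.940), AT2G13350 (0.933), AT3G13660 (0.921) and GAE2 (0.916). With 8 channels and 21446 loci, such values describe these channels only. Of the 10 loci named, 4 of those near the coat mean were lower in the mutant, where 27.5% of all loci were. None of those near the grain mean passed the test. The loci were picked over channels of both genotypes, so a direction shared with the members follows from the choice and is no separate result.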

How the data were processed

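The 8 scanner files were written by Feature Extraction 10.7.3.1, per the file headers, and give, for red and green, a spot's median intensity and that of the background around it, not normalized. Per the file headers they also hold processed signals, flags for spots well above background, and a deposited log10 ratio of red over green. The authors' deposited table of log2 ratios is already turned to mutant over wild type, per its correlation with the scanner values (0.954 to 0.968), and the submitters' processing notes name limma for it without a version. How it was normalized, the labelling primer and the genome build: not given in the sources used here.

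In a poly(A) polymerase mutant the primer matters, since labelling from the tail could make a ratio depend on tail length as well as on transcript amount, which was not tested. Signals were corrected with normexp (offset 50) and normalized by loess within arrays in limma 3.58.1 (R 4.3.3, data.table package, version 1.17.8). Loess sets the typical log ratio of an array to 0, so each change is relative to other transcripts. Control spots (1417 of 39102) and outlier spots had no weight, and outlier spots were left out. A probe was kept if well above background on all 4 arrays of a genotype in a tissue and measured on at least 6 arrays, and a locus was read from its brightest kept probe. All 8 arrays were fitted with a dye term and a coefficient for each tissue (5 residual degrees of freedom, 4.86 prior), with Benjamini-Hochberg adjustment over 21446 loci, and the fit was tested on simulated data. Values are fitted log2 ratios with moderated SEs. Levels per channel were scaled with Aquantile after loess. The number of arrays limits the precision.

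Symbols and gene order came from the RefSeq table of the species, which held 25449 of the 25665 loci; EXL5 and the LAT52-like label are not in it. Named were all members, all cluster relatives and, per list, at most 5 genes with the highest or lowest ratios among those that passed with 1 sign on all 4 arrays; GEX2, DUO1, AP3 and VGDH1 were added after their values were seen. The members and lists were chosen with earlier results of these data known. Alternatives covered the background correction, the software's log ratio, median centring, dim-probe filters, the deposited table, probe choice, the dye term, each tissue alone, a replicate block and each array left out. Replicate numbers also mark the dye. Deviations of same-numbered arrays in both tissues correlated at 0.12 to 0.321, and at −0.0782 to −0.406 after the dye term, so the numbers were not taken as pairs. The files give no sequences, so none are printed.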

Additional observations from a re-analysis of the deposited data

Results flagged for a closer look

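No gene among the 10 members and 37 other named genes had an inflorescence array that stood apart from the other 3 by Dixon's criterion, which chance would meet in about 1 in 20 groups. The log2 ratio of mutant over wild type differed between the tissues, by the limma test of the difference itself, for 28 of these 47 genes. Of all loci, 32.2% passed that test. Most of the 37 were named because they passed in inflorescences, which favours a difference from seedlings near background, so the count is not read against that share. The values are log2 ratios in seedlings minus those in inflorescences, and slide and tissue cannot be told apart in them. Seedling mutants were 11 days old and wild-type seedlings 9 days, so the seedling side holds age as well as genotype. Of the 28 genes, 15 had none of their 8 seedling channels well above background, 8 had some and 5 had all, so for most the difference mirrors the inflorescence value.

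For the members, the differences were 0.39 for EXL6, 0.54 for VGD1 and −0.28 for MGH3. For relatives of the pollen coat genes they were −0.70 for AT1G75880, 0.43 for ATA27, 0.26 for GRP14, 0.89 for GRP16 and 0.67 for GRP20. For late pollen genes they were 0.66 for PPME1, 0.68 for RALFL4, 0.58 for sks13, 0.51 for sks12 and −0.46 for AT1G49490, and for the factor AGL104 the difference was 0.32. Sperm cell genes had −0.51 for DAU2, −0.26 for HAP2 and −0.24 for DAZ1. Tapetum genes had −1.15 for TDF1, −0.24 for DYT1, −0.82 for LAP6, 0.76 for TKPR2, −0.38 for MS2, −0.25 for CYP703A2, −0.65 for AT3G52130 and −0.36 for A7. The meiosis gene SYN1 had 0.30, and SHP2 and AG had −0.31 and −0.28.

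AT1G75880, AT1G49490, AT3G52130, LAP6 and TKPR2 were well above background in all 8 seedling channels, so both sides of their differences were measured. TKPR2 was higher in mutant seedlings, at 0.24 (adjusted p = 0.0154), and lower in mutant inflorescences, at −0.52.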

How the results depend on the processing

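No member changed sign among those that passed in inflorescences, under any of 18 alternatives. Of 180 member values in inflorescences, 150 kept direction and side of the threshold, 25 no longer passed and 3 newly passed (all EXL4); 2 that did not pass changed sign without replicate 4, AGP6 to 0.06 and AT5G45880 to 0.03. Of 666 values of the other named genes, 94 no longer passed. Members lower numbered 4 in the fit as reported, 1 with normexp offset 0, 2 with the deposited table, 0 with the software's log ratio, 0 with median centring and 2 to 3 with 1 array left out; members higher numbered 1, and 0 with the software's log ratio and with median centring. Against 1.5-fold both counts were 0. The median ratio of the members lay between −0.22 and −0.06 over these settings, and in fits of inflorescences alone, added after seeing the data, 5, 5, 4, 3 and 5 members were lower with the reported values, offset 0, the software's log ratio, median centring and the deposited table; with median centring alone none was higher (0). The median residual SD of the members in seedlings was 0.132 as reported and 0.479, 0.425, 0.388 and 0.212 with offset 0, the software, the authors' table and medians, against 0.114 to 0.156 in inflorescences. In the shared fit, spread near background in seedlings thus enters the test in inflorescences.

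Members changed in seedlings numbered 0, but 1 with offset 0, 3 with the software's log ratio, 1 with the deposited table, 1 with the replicate block and 0 to 1 with 1 array left out. MGH3 in seedlings turned to 0.37 with the software's log ratio (adjusted p = 0.0282). Members that differed between tissues numbered 3, and 1, 1, 0 and 1 with offset 0, the software, centring on medians and the authors' table, and 3 to 4 with 1 array left out. In that order of 4 settings, coat relatives lower numbered 3, 1, 1 and 3 (5 as reported), late pollen genes higher 3, 5, 2 and 4 (9), and tapetum genes lower 1, 1, 1 and 1 (3). Late pollen genes lower numbered 6, 5 and 3 with the first 3 settings (12). Tapetum genes higher numbered 5 with the deposited table, 4 with offset 0 and 3 with median centring (10). Without replicate 4, 5 tapetum genes were lower, and the range over left-out arrays was 2 to 5.

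The replicate block gave 1 member higher and 3 lower, with the call of GRP19 lost (adjusted p = 0.0598), and 11056 of all loci called against 11512. Median centring called 8842 loci, 39.0% of them higher, against 48.7% of the calls as reported. With 4 arrays a tissue, probes near background in seedlings and an unknown labelling primer, small ratios and all seedling values of the members are the least secure.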
